A study of Mus musculus with 21 samples.

Results

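The enzymes that make cholesterol and fatty acids, together with the regulators that control them, were followed in the cerebral cortex of mice that express TDP-43, an RNA-binding protein. The group was chosen by name: 32 genes of sterol synthesis, fatty acid synthesis, elongation and desaturation, SREBP regulation and sterol transfer, and where a gene had several probe sets the brightest on average was used. Of these 32 genes, 30 had a probe set, among 12393 genes measured. Acat2, which encodes the cytosolic acetoacetyl-CoA thiolase, and Insig1, a sterol-sensing partner of Scap, had none. Acaca, which encodes acetyl-CoA carboxylase, lay at the lowest value of the table on 20 of 21 arrays and cannot show a fall.

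There were 21 Affymetrix MOE430A 2.0 arrays, each taken as 1 mouse of mixed C57BL/6J x C3HeJ background, 2 weeks after a doxycycline diet was stopped. The 5 dNLS bigenic mice (line NLS4, 4 males and 1 female) carried a human TDP-43 transgene with a defective nuclear localization signal and the tTA driver. The 4 WT bigenic mice (line WT12, 1 male and 3 females) carried a wild-type human TDP-43 transgene and tTA. The 4 dNLS monogenic mice (line NLS4, 3 males and 1 female) carried the dNLS transgene without tTA. The 8 nontransgenic mice (4 males and 4 females), 6 of line NLS4 and 2 of line WT12, carried neither. Both nontransgenic mice of line WT12 were female. tTA is the doxycycline-repressed transactivator, and in the published lines it is driven by the CaMKIIα promoter of forebrain neurons, which the labels do not state. No mice with tTA alone were analysed here, so that effects of tTA and of TDP-43 cannot be told apart when bigenic mice are set against nontransgenic or dNLS monogenic mice. The labels used here give no ages. The genotypes were compared to learn how gene expression differs when TDP-43 is held in the cytoplasm or is present in excess.

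Cholesterol in the brain is made there, because the blood-brain barrier keeps out the cholesterol of the blood. Acetyl-CoA passes through mevalonate to isoprenoid units, then to squalene and, by a series of ring-modifying steps, to cholesterol. The transcription factors SREBP-2 and SREBP-1, encoded by Srebf2 and Srebf1, switch on the sterol and fatty acid enzymes when Scap escorts them out of the endoplasmic reticulum, and Insig proteins hold Scap back when sterols are plentiful.

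All levels are log2 values as deposited, with a lowest value of 2.04, so that a difference of 1 stands for a doubling. A few arrays stood apart. The 3′ minus 5′ difference of the β-actin control probe sets, which grows with degraded RNA or short amplification products, was 1.34 to 2.30 in dNLS bigenic, 1.37 to 1.43 in WT bigenic, 1.56 to 3.13 in dNLS monogenic and 1.46 to 8.20 in nontransgenic arrays. The 2 largest values were those of nontransgenic arrays 6 and 4, at 8.20 and 4.70. The labels give a minimum RNA integrity number of 7 for every sample, these included. Nontransgenic 1 was labelled male and read as female from its sex-linked genes. WT bigenic 3 lay below the other WT bigenic arrays in many sterol genes, as described below. Tardbp, which encodes mouse TDP-43, had 4 probe sets; against nontransgenic cortex, 2 were lower in dNLS bigenic cortex (log2 changes of -0.23 and -1.32), 1 was higher (1.11) and 1 did not pass the test.

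In dNLS bigenic cortex, 6 members were lower than in nontransgenic cortex and 1 was higher, at an adjusted p under 0.05 in limma. The 6 lower members were Hmgcs1, Mvd and Idi1 of the mevalonate steps, Fdft1 and Sqle at the entry to sterols, and the fatty acid synthase gene Fasn. The higher member was Elovl6, a fatty acid elongase. Over all 12393 genes, 22.3% passed the same test, so the 7 of 30 members called (23.3%) were about as frequent as calls in the whole table. The whole table includes 2854 genes at the lowest value on every array, where no change can be seen. Of the members only Acaca came near this, on 20 of 21 arrays. Shares of all genes given here are therefore lower than shares among detected genes. Of the 30, 6 were lower (11.5% in the whole table) and 1 was higher (10.8% in the whole table). All dNLS bigenic arrays lay below all nontransgenic arrays in 5 members, where 5.68% of all genes did so, and above them in none, where 6.78% of all genes did so. The median log2 change over the 30 members was -0.07, against -0.02 over the 9539 genes above the lowest value on at least 1 array. Negative changes numbered 20 and positive ones 10, against 5364 and 4399 among all 12393 genes. Acaca, which cannot show a fall, is among the 20. With nontransgenic 4 and 6 left out the count was 8 (26.6% of all genes). With the β-actin difference as a covariate it was 11, of which 10 were lower, when 26.9% of all genes were called and 12.8% were lower. Cortex was measured in bulk, so fewer cells of a type and less RNA per cell cannot be told apart.

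**Figure D1:**
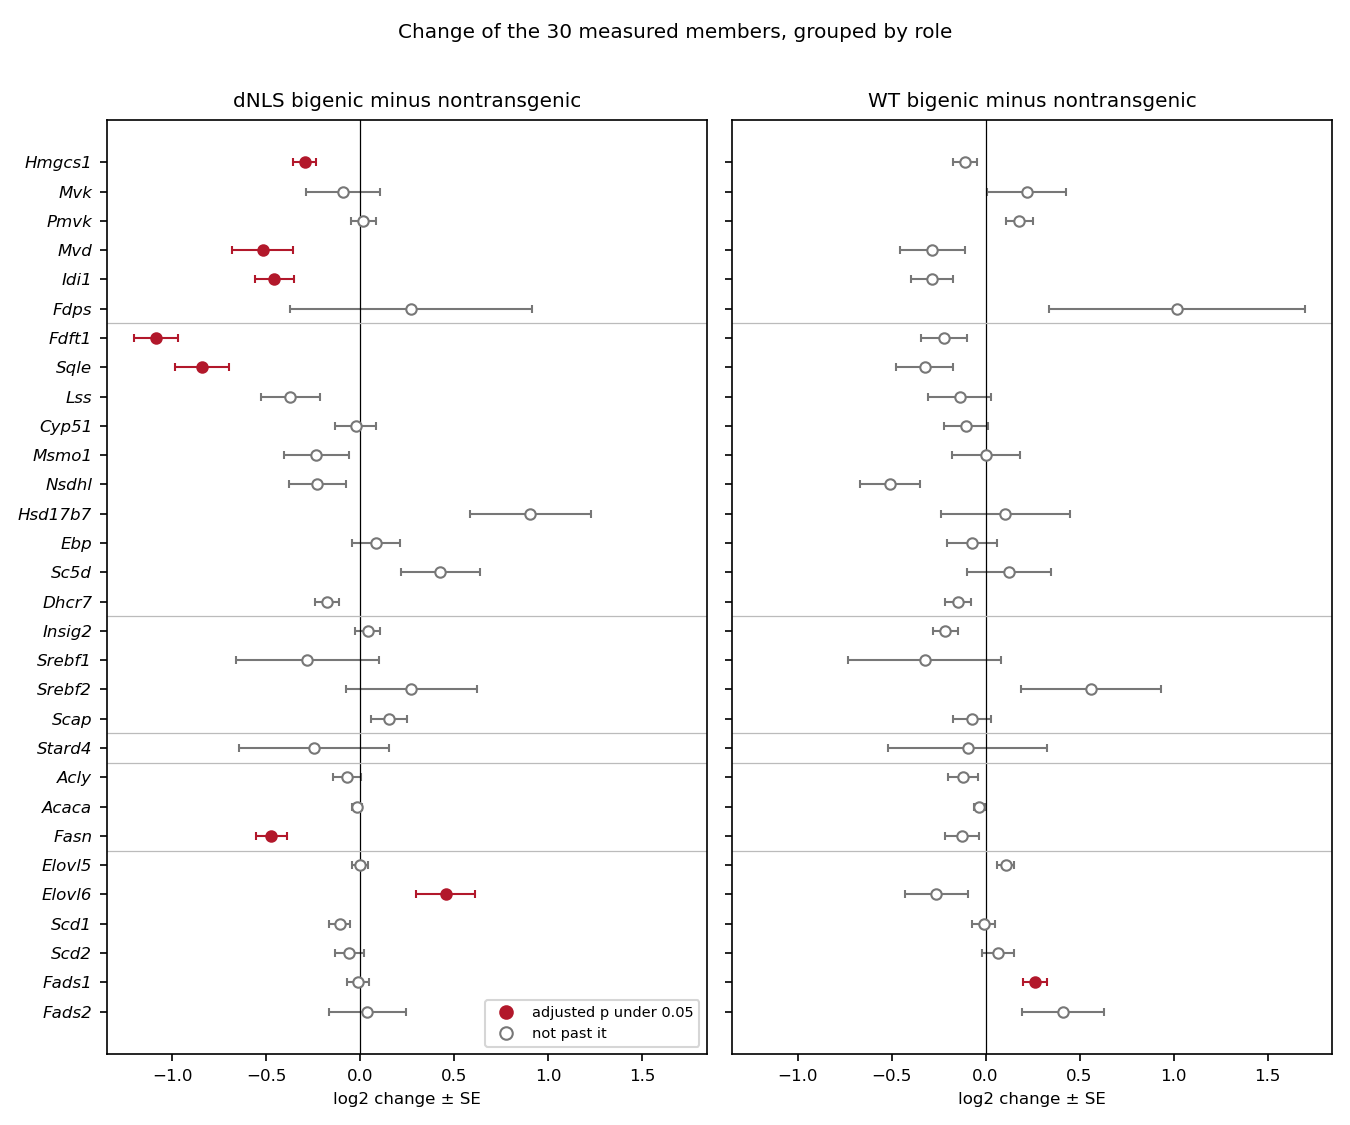
Log2 change ± SE of each measured member (rows, by role) in dNLS bigenic minus nontransgenic cortex (left, n = 5 and 8 arrays) and WT bigenic minus nontransgenic cortex (right, n = 4 and 8 arrays); filled red points passed an adjusted p of 0.05 in limma. In the left panel Fdft1 at -1.09 and Sqle at -0.84 lie farthest to the left, and Fads1 is the only filled point in the right panel.

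The 250 bases before the annotated start are shown for the 5 of these 7 genes that have an entry in the RefSeq promoter table of assembly GRCm38.p6, because SREBP and its partner NF-Y act on such promoters. Capitals mark TCACNCCA, letters of the sterol regulatory element, and CCAAT, the NF-Y box, on either strand (as the reverse complement on the minus strand). The windows are chr13:119690101-119690350, plus strand for Hmgcs1; chr8:122443423-122443672, minus strand for Mvd; chr13:8885356-8885605, plus strand for Idi1; chr11:120824548-120824797, minus strand for Fasn; and chr3:129532136-129532385, plus strand for Elovl6, each printed 5′ to 3′ along its gene. The Fasn window precedes a transcript start that lies within the annotated Fasn gene, whose span reaches further upstream.
Hmgcs1: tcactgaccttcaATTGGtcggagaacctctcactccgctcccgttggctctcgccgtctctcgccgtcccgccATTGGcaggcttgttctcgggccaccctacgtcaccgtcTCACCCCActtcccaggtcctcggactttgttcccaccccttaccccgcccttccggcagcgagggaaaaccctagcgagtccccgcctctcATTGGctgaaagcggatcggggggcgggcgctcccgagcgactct
Mvd: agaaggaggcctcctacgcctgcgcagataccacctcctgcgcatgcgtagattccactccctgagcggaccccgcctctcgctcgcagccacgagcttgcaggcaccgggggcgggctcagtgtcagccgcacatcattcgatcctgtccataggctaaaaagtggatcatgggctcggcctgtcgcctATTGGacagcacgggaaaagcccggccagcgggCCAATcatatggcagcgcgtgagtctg
Idi1: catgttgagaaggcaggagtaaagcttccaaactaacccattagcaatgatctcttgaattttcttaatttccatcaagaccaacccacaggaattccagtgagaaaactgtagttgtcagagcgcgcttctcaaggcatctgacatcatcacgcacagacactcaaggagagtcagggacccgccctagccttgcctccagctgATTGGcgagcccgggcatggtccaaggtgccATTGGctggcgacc
Fasn: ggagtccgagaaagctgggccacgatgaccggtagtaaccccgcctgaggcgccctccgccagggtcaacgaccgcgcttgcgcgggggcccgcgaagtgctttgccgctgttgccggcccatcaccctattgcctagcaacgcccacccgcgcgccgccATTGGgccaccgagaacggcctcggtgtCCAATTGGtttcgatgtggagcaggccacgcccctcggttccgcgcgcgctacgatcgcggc
Elovl6: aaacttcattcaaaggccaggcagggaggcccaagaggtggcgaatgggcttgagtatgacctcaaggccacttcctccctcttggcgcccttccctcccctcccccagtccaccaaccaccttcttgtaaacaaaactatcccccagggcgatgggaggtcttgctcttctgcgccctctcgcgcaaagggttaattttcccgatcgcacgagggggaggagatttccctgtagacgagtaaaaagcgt

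The Hmgcs1 window holds TCACNCCA once, with its first base 137 bases before the start, and CCAAT 3 times. The Mvd window holds CCAAT at 60 and 27 bases before the start, the Idi1 window at 45 and 14, and the Fasn window at 90, 62 and 59, where the last pair overlap on opposite strands. The Elovl6 window, of the one gene that was higher, holds neither motif. Of 33 windows of 25 listed genes, TCACNCCA was present in 3 (9.09%; Hmgcs1, Srebf2 and Msmo1), against 3.67% of all 32851 windows of the table. CCAAT was present in 20 of the 33 (60.6%), against 33.8% of all windows. These matches are descriptions of letters and not measured sites.

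Of the mevalonate steps, 3 of 6 measured members were lower in dNLS bigenic cortex and none was higher. Over all genes 11.5% were lower and 10.8% higher. Hmgcs1 encodes the cytosolic HMG-CoA synthase, which builds HMG-CoA ahead of mevalonate. Its levels were 13.56, 13.61, 13.58, 13.60 and 13.57 in dNLS bigenic mice, 13.81, 13.84, 13.61 and 13.84 in WT bigenic mice and 13.75, 13.91, 13.79 and 13.83 in dNLS monogenic mice, against 13.72, 13.86 and 14.08 (lowest, median and highest) in nontransgenic mice. All 5 dNLS bigenic arrays lay below all 8 nontransgenic arrays, with a narrow spread (SD 0.02), and WT bigenic 3 was as low as they were. The log2 change was -0.30 ± 0.06 (SE; adjusted p = 0.0013, limma), or 1.23-fold lower.

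Idi1 encodes isopentenyl-diphosphate isomerase, which interconverts the isoprenoid building blocks. Idi1 stood at 10.68, 10.62, 10.61, 10.46 and 10.44 in dNLS bigenic mice, 10.77, 10.94, 10.20 and 10.84 in WT bigenic mice and 10.90, 11.002, 11.03 and 10.86 in dNLS monogenic mice, against 10.74, 11.03 and 11.19 (lowest, median and highest) in nontransgenic mice. The dNLS bigenic arrays lay below every nontransgenic and dNLS monogenic array. The fall against nontransgenic mice was 1.37-fold (log2 change -0.46 ± 0.11, adjusted p = 0.0042 in limma).

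Mvd encodes mevalonate diphosphate decarboxylase, the step before Idi1. Its levels were 7.12, 7.53, 7.42, 7.48 and 7.62 in dNLS bigenic mice, 7.79, 7.79, 7.12 and 7.90 in WT bigenic mice and 7.20, 7.93, 7.46 and 7.55 in dNLS monogenic mice, against 7.43, 7.97 and 8.33 (lowest, median and highest) in nontransgenic mice. The groups overlapped at nontransgenic 5, and dNLS monogenic 1, 3 and 4 lay within the range of the dNLS bigenic arrays. Against nontransgenic mice the log2 change was -0.52 ± 0.16 (adjusted p = 0.029, limma). This call was lost under 7 of 32 alternatives, among them the β-actin covariate, the removal of nontransgenic 4 and 6 together, and the removal of dNLS bigenic 1 or 3 or of nontransgenic 2 or 4 singly.

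The other 3 measured mevalonate members did not pass the test. Mvk, mevalonate kinase, had a log2 change of -0.09 ± 0.20 and Pmvk, phosphomevalonate kinase, one of 0.02 ± 0.07. Fdps, farnesyl diphosphate synthase, ranged from 8.30 to 9.34 in dNLS bigenic mice, against 5.03 to 9.84 in nontransgenic mice, where the lowest values, 5.03 and 7.40, were those of the arrays with the largest 3′ bias. Its log2 change was 0.27 ± 0.64 over all arrays and -0.42 ± 0.25 without these arrays (adjusted p = 0.27), and with the β-actin covariate it passed the test at -0.73 ± 0.11 (adjusted p = 7.2e-05, limma).

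Of the steps from squalene to cholesterol, 2 of 10 members were lower and none was higher in dNLS bigenic cortex. This share was close to the 22.3% called over all genes. The 2 were Fdft1 and Sqle, the first steps of the branch. Fdft1 encodes squalene synthase, the first enzyme committed to sterols. Its levels were 10.33, 10.50, 10.43, 10.37 and 10.68 in dNLS bigenic mice, 11.39, 11.50, 10.84 and 11.42 in WT bigenic mice and 11.26, 11.72, 11.35 and 11.34 in dNLS monogenic mice, against 11.24, 11.54 and 11.79 (lowest, median and highest) in nontransgenic mice. Every dNLS bigenic array lay below every array of the other 3 groups, also below WT bigenic 3. The log2 change of -1.09 ± 0.12 against nontransgenic mice (adjusted p = 3.6e-06, limma) was the largest fall among the members.

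Sqle encodes squalene epoxidase, which acts on the product of Fdft1 and is a rate-limiting enzyme of the branch. Sqle stood at 9.61, 9.65, 9.56, 9.55 and 9.74 in dNLS bigenic mice, 10.32, 10.42, 9.34 and 10.13 in WT bigenic mice and 10.22, 10.51, 10.28 and 10.26 in dNLS monogenic mice, against 10.18, 10.40 and 10.66 (lowest, median and highest) in nontransgenic mice. The dNLS bigenic arrays were below all nontransgenic and monogenic arrays, whereas WT bigenic 3 was lower than any of them. The fall against nontransgenic mice was 1.79-fold (log2 change -0.84 ± 0.14, adjusted p = 3.4e-04 in limma).

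**Figure D2:**
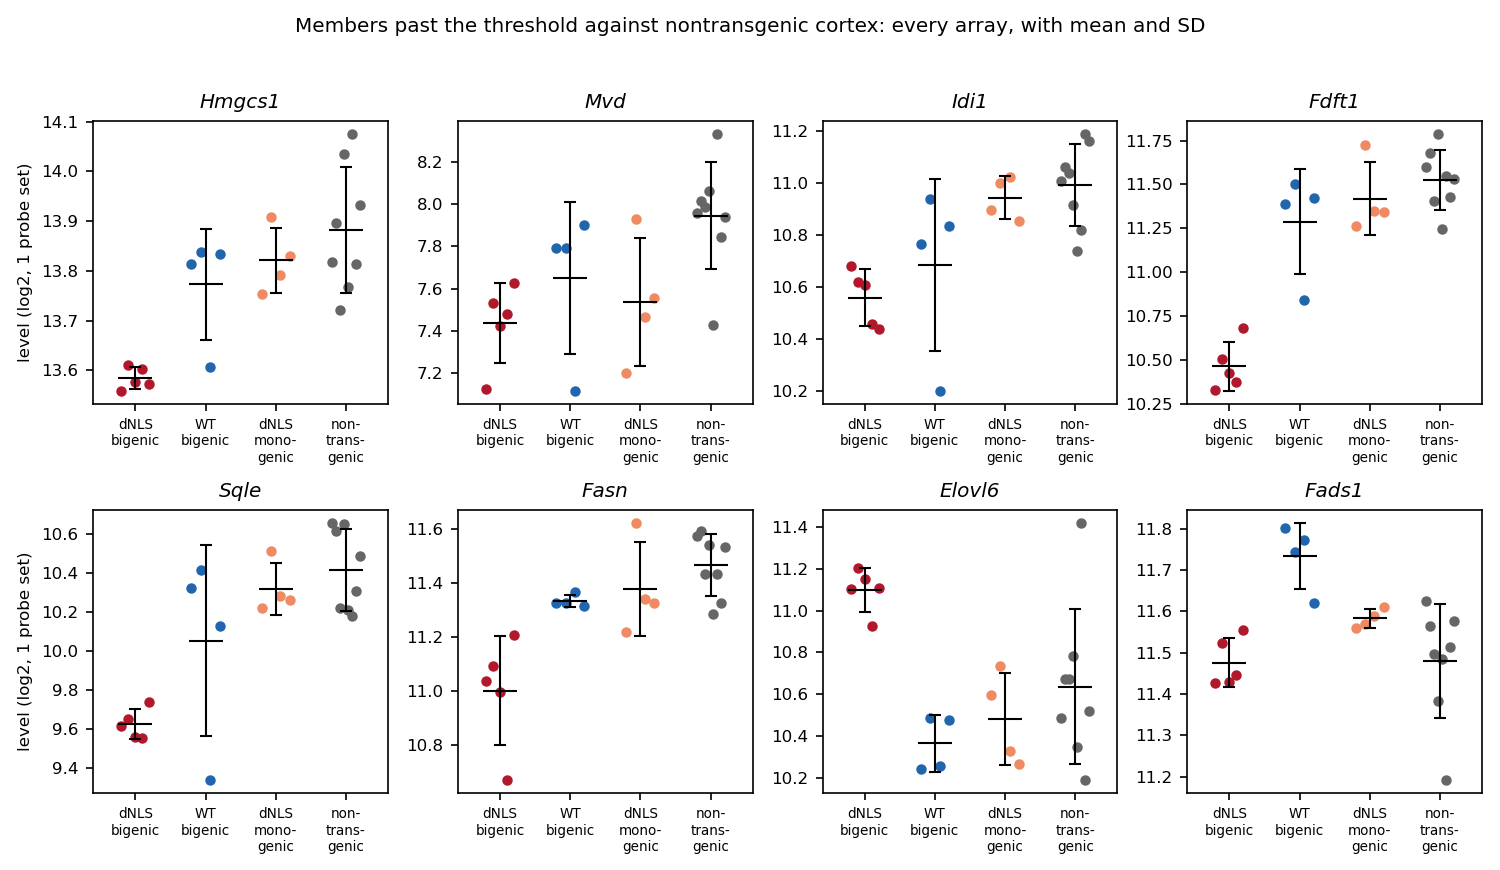
Log2 level of each member that passed the threshold against nontransgenic mice in either bigenic group; points are arrays (dNLS bigenic n = 5, WT bigenic n = 4, dNLS monogenic n = 4, nontransgenic n = 8), and black bars are mean ± SD. Each panel has its own level axis, which does not start at 0. For Fdft1 the dNLS bigenic points (10.33 to 10.68) lie below all others, and in Sqle the single low WT bigenic point is at 9.34.

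In the fit over all arrays and genes with labelled sex, none of the later enzymes passed the test. Lss, lanosterol synthase, had a log2 change of -0.37 ± 0.16 (adjusted p = 0.11) and passed at -0.35 ± 0.12 (adjusted p = 0.039) once nontransgenic 4 and 6 were left out. Msmo1, the C-4 methylsterol oxidase, was at -0.23 ± 0.17 over all arrays and passed at -0.41 ± 0.12 without them (adjusted p = 0.014, limma). Dhcr7, which catalyses the final reduction of 7-dehydrocholesterol, was at -0.18 ± 0.06 (adjusted p = 0.059), and Nsdhl, a C-4 decarboxylating dehydrogenase, at -0.23 ± 0.15. Dhcr7 passed as lower with no sex covariate and without the genes at the lowest value on every array. It also passed without nontransgenic 3 or 5, and under no other alternative. Cyp51, lanosterol 14α-demethylase, was at -0.03 ± 0.11 and Ebp, the sterol isomerase, at 0.08 ± 0.13. In the other direction stood Hsd17b7, the 3-ketosteroid reductase, at 0.90 ± 0.32 (adjusted p = 0.055), and Sc5d, the C-5 desaturase, at 0.43 ± 0.21 (adjusted p = 0.18). Hsd17b7 was dim, from 4.995 to 5.86 in dNLS bigenic mice and 3.67 to 5.72 in nontransgenic mice, and it passed the test at 1.03 ± 0.32 (adjusted p = 0.028) against the nontransgenic mice of its own line.

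None of the 4 measured regulators passed the test in dNLS bigenic cortex. The log2 change was 0.27 ± 0.35 for Srebf2 and -0.28 ± 0.38 for Srebf1. Nontransgenic arrays spread from 9.08 to 11.77 in Srebf2 and from 8.19 to 10.47 in Srebf1. The lowest Srebf2 and the highest Srebf1 value both came from nontransgenic 6. With the β-actin covariate Srebf2 passed as lower (-0.27 ± 0.08, adjusted p = 0.017 in limma), while Srebf1 did not pass (0.19 ± 0.26). With nontransgenic 4 and 6 left out instead, neither gene passed. Scap was at 0.15 ± 0.10 and Insig2 at 0.04 ± 0.06. Stard4, which carries cholesterol between membranes, had a log2 change of -0.25 ± 0.40 and ranged from 6.90 to 8.21 in dNLS bigenic mice, against 6.87 to 9.15 in nontransgenic mice. The arrays measure messenger RNA and not the cleavage of SREBP proteins.

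Of the 3 fatty acid synthesis genes, Fasn alone passed the test, which 22.3% of all genes passed. It encodes the synthase that builds palmitate from acetyl-CoA and malonyl-CoA. Fasn levels were 11.04, 11.09, 10.99, 10.67 and 11.21 in dNLS bigenic mice, 11.33, 11.33, 11.37 and 11.32 in WT bigenic mice and 11.22, 11.62, 11.34 and 11.33 in dNLS monogenic mice, against 11.29, 11.48 and 11.60 (lowest, median and highest) in nontransgenic mice. All dNLS bigenic arrays lay below every other array, although dNLS bigenic 5 came close to dNLS monogenic 1. The log2 change against nontransgenic mice was -0.47 ± 0.08, or 1.39-fold lower (adjusted p = 5.0e-04, limma). Acly, which supplies cytosolic acetyl-CoA, had a log2 change of -0.07 ± 0.07.

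Among the elongases and desaturases, 1 of 6 members was higher and none was lower (10.8% and 11.5% of all genes). Elovl6 extends palmitate to stearate. Its levels were 11.11, 11.20, 11.15, 10.93 and 11.11 in dNLS bigenic mice, 10.24, 10.48, 10.26 and 10.48 in WT bigenic mice and 10.60, 10.74, 10.33 and 10.26 in dNLS monogenic mice, against 10.19, 10.60 and 11.42 (lowest, median and highest) in nontransgenic mice. The dNLS bigenic arrays exceeded every other array except nontransgenic 6, the highest of all. The log2 change was 0.45 ± 0.16 (adjusted p = 0.048, limma), a call that 22 of 32 alternatives did not keep, the removal of any 1 dNLS bigenic or WT bigenic array among them, with adjusted p values up to 0.12. Without nontransgenic 4 and 6 it was 0.58 ± 0.10 (adjusted p = 3.6e-04). None of the others passed: the log2 change was -0.11 ± 0.06 for the stearoyl-CoA desaturase Scd1, -0.06 ± 0.08 for its relative Scd2 and -0.004 ± 0.04 for the elongase Elovl5. The front-end desaturases Fads1 and Fads2 were at -0.01 ± 0.06 and 0.04 ± 0.21. With the β-actin covariate Scd1 and Fads2 passed as lower. They did not pass when nontransgenic 4 and 6 were left out instead.

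A second reading came from the other probe sets, since 19 members had more than 1. Over the 60 probe sets of the members, 10 were lower and 1 was higher when all 20380 single-gene probe sets were tested, of which 19.7% passed (9.48% lower and 10.2% higher). The 11 of 60 called were thus about as frequent as calls over all probe sets. Hmgcs1 was lower in 3 of its 4 probe sets (-0.30, -0.39 and -0.43), and the dimmest was at -0.14 ± 0.24. Idi1 was lower in both, at -0.46 and -0.93. Fdft1 was lower in both probe sets that detected it, at -1.09 and -0.85, while its other 2 lay at the lowest value on every array. Elovl6 was at 0.45 (adjusted p = 0.053 over all probe sets) and 0.70 (adjusted p = 0.021). The second probe set of Mvd was dim, with a mean of 3.10, and showed -0.02 ± 0.17. Several of these probe sets carry the manufacturer's suffixes for shared sequence, so cross-hybridization to related transcripts was not tested.

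**Figure D3:**
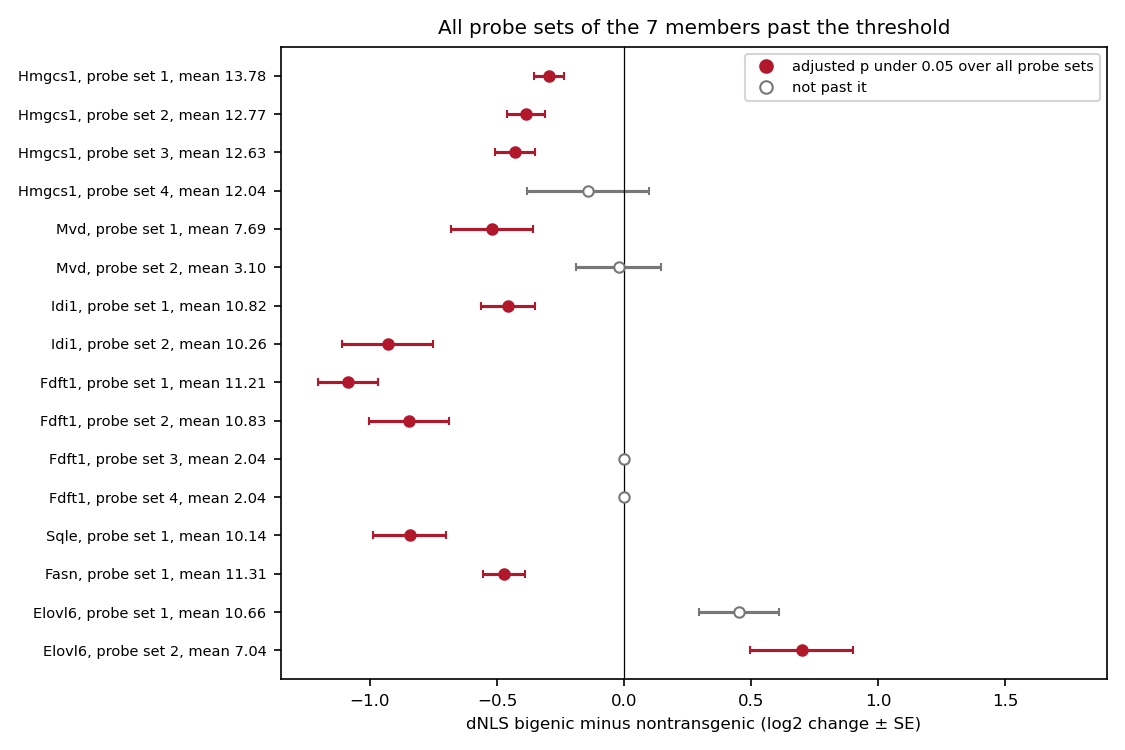
Log2 change ± SE in dNLS bigenic minus nontransgenic cortex (n = 5 and 8 arrays) for every probe set of the 7 members past the threshold, each row with the mean log2 level over all 21 arrays. The 2 bright Fdft1 probe sets lie at -1.09 and -0.85, and its 2 probe sets with a mean of 2.04 lie at 0.

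Setting dNLS bigenic against dNLS monogenic mice compares the same line and transgene with and without tTA. In this comparison 14.3% of all genes were called (6.54% lower and 7.76% higher), and 6 of 30 members: Hmgcs1, Idi1, Fdft1, Sqle and Fasn were lower and Elovl6 was higher. The log2 changes were -0.24 ± 0.07 for Hmgcs1 (adjusted p = 0.024), -0.39 ± 0.12 for Idi1 (0.039) and -0.96 ± 0.13 for Fdft1 (9.1e-05). Those of the remaining genes were -0.70 ± 0.16 for Sqle (0.0065), -0.38 ± 0.10 for Fasn (0.012) and 0.62 ± 0.18 for Elovl6 (0.027), all in limma. In these 6 genes the dNLS bigenic and monogenic arrays did not overlap. Over the members, all dNLS bigenic arrays lay below all monogenic arrays in 7 (9.0% of all genes) and above them in 1 (10.8% of all genes). Mvd, at -0.10 ± 0.19, did not pass. Both comparisons share the dNLS bigenic arrays and are not independent. The count fell to 3 without dNLS bigenic 5 or without dNLS monogenic 4, with Fdft1, Sqle and Fasn retained each time; Fasn was lost without dNLS monogenic 2, and Hmgcs1 also without dNLS bigenic 1 or dNLS monogenic 2. Idi1 was also lost without dNLS bigenic 2, 3 or 4 or any 1 dNLS monogenic array, and Elovl6 without dNLS bigenic 1, 2 or 3 or dNLS monogenic 3. The share of all genes called without these arrays is not given here. These losses are therefore not read as particular to the members. No glial marker passed the test in this comparison, but all 10 astrocyte markers were negative (median -0.11, 4 with every dNLS bigenic array below) and all 8 microglia markers were negative (median -0.50). The mean astrocyte marker level was 11.66 to 11.89 in dNLS bigenic and 11.89 to 12.02 in dNLS monogenic arrays, and the mean microglia marker level 8.48 to 9.44 in dNLS bigenic and 9.23 to 9.54 in dNLS monogenic arrays. Their part in the member differences was not tested.

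Between dNLS monogenic and nontransgenic mice no member passed the test, and no gene of the table did (0.0%). In no member did the arrays of these groups separate fully, and 0.0323% of all genes separated in each direction. At an unadjusted p under 0.05 there were 196 genes, and 1 member, Mvd, at -0.42 ± 0.17 (adjusted p = 1.0).

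In WT bigenic cortex, 1 of 30 members passed against nontransgenic mice, where 2.23% of all genes did (1.54% lower and 0.686% higher). This was Fads1, the delta-5 desaturase of polyunsaturated fatty acids. Fads1 stood at 11.80, 11.74, 11.77 and 11.62 in WT bigenic mice, 11.43, 11.52, 11.43, 11.45 and 11.55 in dNLS bigenic mice and 11.56, 11.57, 11.59 and 11.61 in dNLS monogenic mice, against 11.19, 11.51 and 11.62 (lowest, median and highest) in nontransgenic mice. WT bigenic 4 overlapped with the top nontransgenic array and the other 3 lay above them. In none of the members did WT bigenic and nontransgenic arrays separate fully, whereas 3.33% of all genes were wholly below and 1.92% wholly above. The log2 change was 0.26 ± 0.06 (adjusted p = 0.039, limma), and it missed the threshold under 14 of 32 alternatives, with an adjusted p of up to 0.64, among them the removal of WT bigenic 1, 2 or 3 or of nontransgenic 3, 4 or 7. Against the 2 nontransgenic mice of line WT12 alone, no member passed.

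The 6 members that were lower in dNLS bigenic mice had log2 changes between -0.11 and -0.32 in WT bigenic mice, none past the threshold: -0.11 ± 0.06 for Hmgcs1, -0.28 ± 0.17 for Mvd, -0.29 ± 0.11 for Idi1, -0.22 ± 0.12 for Fdft1, -0.32 ± 0.15 for Sqle and -0.13 ± 0.09 for Fasn. Outside Fasn, where WT bigenic 3 was the highest of its group (11.37), much of their spread came from 1 array. WT bigenic 3 lay below the nontransgenic median in 14 of the 16 sterol steps, by a median of 0.40, whereas the other 3 WT bigenic arrays were below it in 8 to 11 steps, with medians of -0.09, 0.00 and -0.07. For the dNLS bigenic arrays the number was 10 to 13 and the median -0.20 to -0.27. In Sqle, WT bigenic 3 was at 9.34 and the other 3 between 10.13 and 10.42, and in Nsdhl it was at 8.07 and they were between 8.94 and 9.08. Srebf1 went the other way, at 9.71 in WT bigenic 3 and 8.40 to 8.61 in the other 3. Its mean microglia marker level was 10.72, against 9.69 to 9.86 in the others, and its mean astrocyte marker level 12.33, against 11.95 to 12.03. Its β-actin difference, 1.38, was not raised. The part of these differences in the sterol values was not tested.

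**Figure D4:**
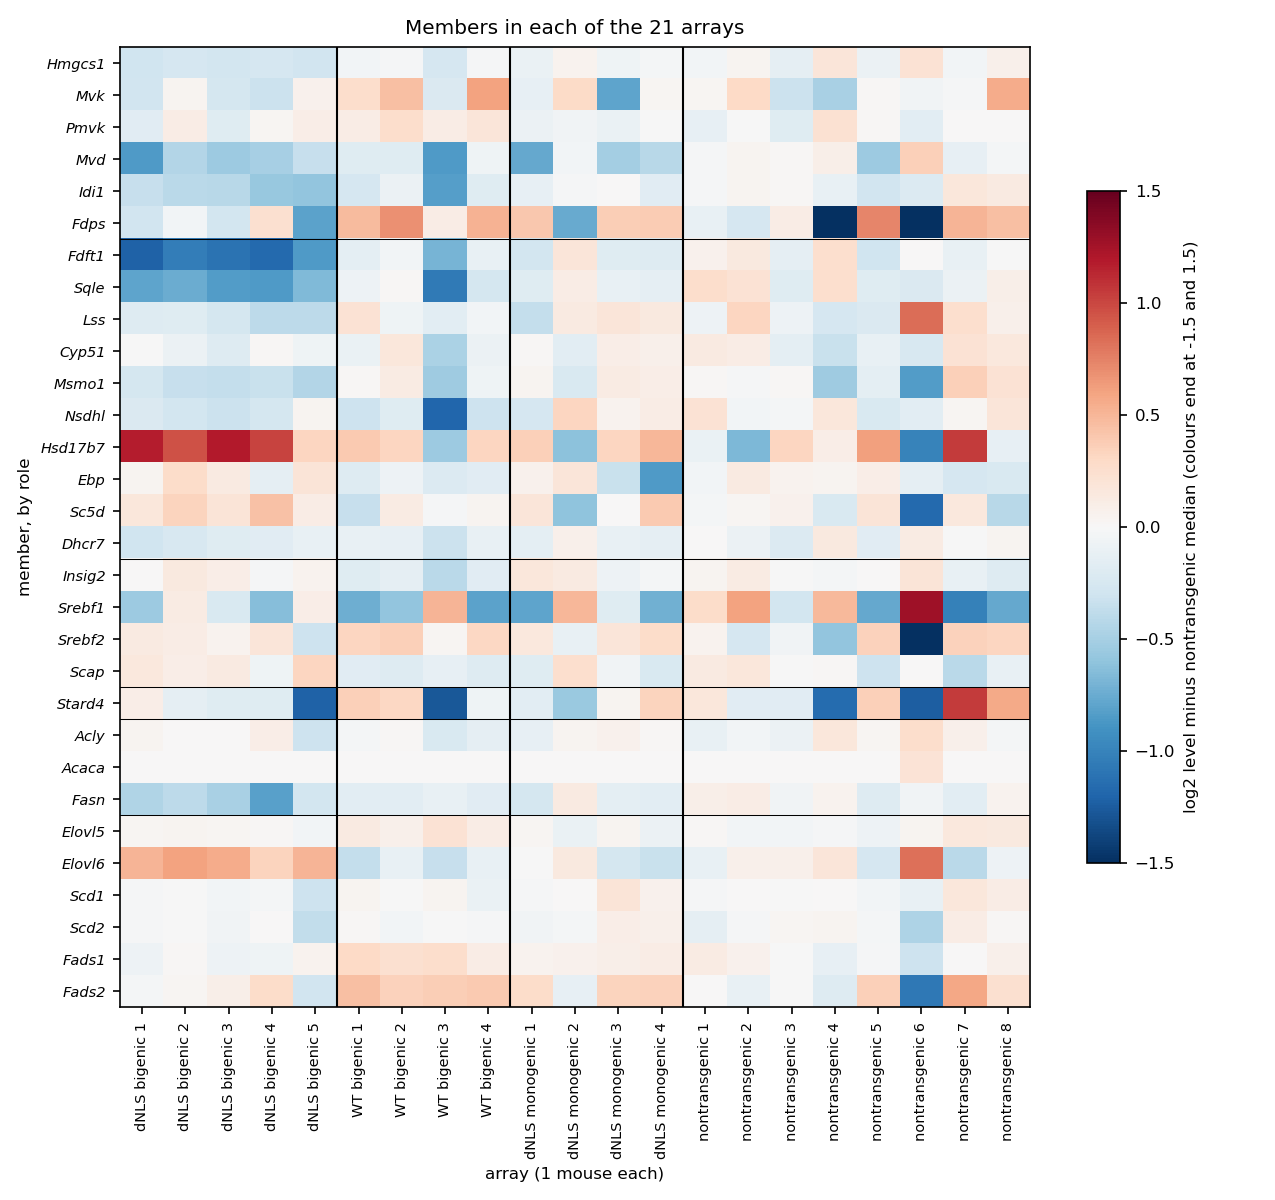
Log2 level of every member (rows, by role) in every array (columns, by group: dNLS bigenic, WT bigenic, dNLS monogenic, nontransgenic), minus the median of the 8 nontransgenic arrays. Blue is below that median and red above, with colours ending at -1.5 and 1.5. The dNLS bigenic columns are blue in the Fdft1 and Sqle rows, WT bigenic 3 is blue in 14 of 16 sterol steps, and nontransgenic 6 stands out in Fdps, Srebf1 and Srebf2.

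The direct comparison of dNLS bigenic with WT bigenic mice, in which both groups carry tTA and an induced TDP-43, called 10.8% of all genes (4.53% lower and 6.24% higher) and 5 of 30 members. Fdft1 (-0.87 ± 0.14, adjusted p = 6.9e-04), Fasn (-0.35 ± 0.10, adjusted p = 0.038) and Fads1 (-0.27 ± 0.07, adjusted p = 0.019) were lower in dNLS bigenic mice. Elovl6 (0.72 ± 0.19, adjusted p = 0.023) and Insig2 (0.25 ± 0.08, adjusted p = 0.049) were higher, all in limma. Insig2, which retains Scap in the endoplasmic reticulum, was at 10.16, 10.29, 10.24, 10.13 and 10.20 in dNLS bigenic mice, against 9.96, 10.01, 9.74 and 9.97 in WT bigenic mice. It was 10.32, 10.29, 10.07 and 10.12 in dNLS monogenic mice, and 9.96, 10.15 and 10.35 (lowest, median and highest) in nontransgenic mice. Over the members, all dNLS bigenic arrays lay below all WT bigenic arrays in 7 (9.99% of all genes) and above them in 3 (12.5% of all genes). The bigenic groups did not overlap in any of the 5 called genes, and in Insig2 the WT bigenic arrays were the low ones.

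These groups differ in line and in sex ratio as well as in the transgene, and WT bigenic 3 bears on the result. Without it, Hmgcs1 (-0.24 ± 0.07, adjusted p = 0.044) and Sqle (-0.72 ± 0.12, adjusted p = 9.8e-04) passed as lower beside Fdft1 and Fads1, while Fasn, Elovl6 and Insig2 did not pass. Without WT bigenic 1, the only male of its group, Fdft1 alone passed, and Fasn was lost without any 1 of the 4 WT bigenic arrays. How the share of all genes called moved in these fits is not given here. Such gains and losses are therefore not read as particular to the members. Fdft1 was the only one of the 5 to keep its call under all 32 alternatives. Insig2 lost its call under 18 of them, median centring and the fit with no intensity trend included (adjusted p up to 0.15), Fasn under 9, Elovl6 under 3 and Fads1 under 2. The groups also differed in glial markers. The mean microglia marker level was 8.48 to 9.44 in dNLS bigenic and 9.69 to 10.72 in WT bigenic arrays, and the mean astrocyte marker level was 11.66 to 11.89 in dNLS bigenic and 11.95 to 12.33 in WT bigenic arrays. Their part in the member differences was not tested.

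Because each bigenic group has nontransgenic mice of its own line, the difference between the effects was itself tested, dNLS bigenic minus nontransgenic in line NLS4 less WT bigenic minus nontransgenic in line WT12. This difference passed for 3.55% of all genes (1.89% lower and 1.66% higher) and for 1 of 30 members. Fdft1 fell further in line NLS4, by 0.88 ± 0.22 on the log2 scale (adjusted p = 0.033, limma). The nontransgenic level of Fdft1 was 11.24 to 11.79 in line NLS4 and 11.43 and 11.53 in the 2 mice of line WT12. The call was lost under 11 of 32 alternatives, with adjusted p values up to 0.17, among them the removal of dNLS bigenic 1, 2, 3 or 4, of WT bigenic 1, 2 or 4, or of nontransgenic 2, 7 or 8. For Sqle, Hmgcs1, Idi1, Mvd and Fasn the difference between lines did not pass the test.

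Genes next to these pathways were counted by list in dNLS bigenic against nontransgenic cortex, where 22.3% of all genes were called, 11.5% lower and 10.8% higher. Of 5 measured genes of 8 listed for further sterol synthesis and SREBP processing, 2 were lower and none was higher. Tm7sf2, a sterol C-14 reductase, was lower (-0.93 ± 0.17, adjusted p = 5.1e-04), and Pgrmc1, a heme-binding partner of Cyp51, was 1.45-fold lower (-0.54 ± 0.04, adjusted p = 7.3e-08, limma). Pgrmc1 also passed the test of the difference between lines (-0.39 ± 0.07, adjusted p = 0.0076). Of 16 genes measured for other fatty acid synthesis and activation, 6 were lower and 1 was higher. The 6 lower genes were the elongase Elovl2 (-0.84 ± 0.24), the dehydratases Hacd1 (-0.68 ± 0.16), Hacd2 (-0.42 ± 0.13) and Hacd3 (-0.09 ± 0.03), Acss2, which makes acetyl-CoA from acetate (-0.61 ± 0.11), and the acyl-CoA synthetase Acsl4 (-0.36 ± 0.07). Acsl5, another acyl-CoA synthetase, was higher (0.41 ± 0.07).

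Of 20 genes measured for cholesterol uptake, transport and turnover, 3 were higher and 1 was lower, close to the 22.3% called over all genes. The transporters Abca1 (0.57 ± 0.17, adjusted p = 0.019) and Abca2 (1.11 ± 0.38, adjusted p = 0.046) were higher. Cyp46a1, the neuronal enzyme that turns cholesterol into 24-hydroxycholesterol for export from the brain, was 1.38-fold lower (-0.46 ± 0.09, adjusted p = 0.0011, limma). The third higher gene, Lrp8, a lipoprotein receptor, had means of 2.05 and 2.04, at the foot of the scale. Of the 6 genes measured in the isoprenoid branch after Fdps, 1 passed: Rce1, a protease of prenylated proteins, was higher (0.56 ± 0.14, adjusted p = 0.0068).

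Cortex holds several cell types that make sterols and fatty acids, oligodendrocytes and astrocytes among them, so markers were read in the same arrays. Of 11 oligodendrocyte markers, 1 was lower in dNLS bigenic than in nontransgenic cortex (Mbp, -0.13 ± 0.04) and the mean level of the list was 11.28 to 11.60 in dNLS bigenic and 10.96 to 11.94 in nontransgenic arrays. Of 10 astrocyte markers, Aldh1l1 was lower (-0.47 ± 0.12), and the list mean was 11.66 to 11.89 in dNLS bigenic and 11.73 to 12.001 in nontransgenic arrays. Of 7 neuronal markers, 2 were higher, Rbfox3 (0.63 ± 0.22) and Tubb3 (0.20 ± 0.04). In the neuronal list 4 changes were positive and 3 negative. The neuronal list mean was 11.84 to 12.21 in dNLS bigenic and 10.64 to 12.47 in nontransgenic arrays, where the lowest values, 10.64 and 11.20, were those of nontransgenic 6 and 4. One marker each was lower among 5 of oligodendrocyte precursors (Pdgfra, -0.38 ± 0.13) and 8 of microglia (Tmem119, -0.61 ± 0.15), with list means of 8.31 to 8.99 in dNLS bigenic and 8.40 to 9.34 in nontransgenic arrays for precursors, and of 8.48 to 9.44 in dNLS bigenic and 8.78 to 9.82 in nontransgenic arrays for microglia. None passed among 8 of endothelium and mural cells, 4 of choroid plexus and 3 of blood. No marker of neurons, glia or vessels lay at the lowest value on all arrays of a group, while 2 of the 4 choroid plexus and 2 of the 3 blood markers did so in nontransgenic mice. Over all genes 11.5% were lower and 10.8% higher. Changes were negative in 5 and positive in 6 oligodendrocyte markers, and negative in 8 and positive in 2 astrocyte markers. All 5 precursor markers were negative (median -0.38), as were 7 of 8 microglia markers (median -0.39). Of the endothelium and mural markers 7 were negative and 1 was positive, and all 4 choroid plexus markers were positive. The part of cell composition in the member changes was not tested.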

How the data were processed

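RNA of mouse cerebral cortex was amplified by a poly(T)-primed linear protocol and hybridized to Affymetrix MOE430A 2.0 arrays, per the labels' protocols. The log2 values were used as deposited by the authors; Partek is named per the submitters' processing notes, and how background was corrected and arrays normalized is not given in the sources used here. The log2 scale is read from the values, which run from 2.04 to 15.08. On each array 30.7% to 32.4% of 22690 probe sets lay within 0.01 of the lowest value, where no change can be seen. Array medians were 5.76 to 6.05, and the number of arrays limits the precision.

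Of the probe sets, 64 were controls, 20380 named 1 gene, 691 several and 1555 none, and only those naming 1 gene were used. For each gene the probe set brightest on average over all arrays was kept, giving 12393 genes. Of these probe sets, 20351 matched a RefSeq gene by Entrez ID.

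Differences were tested with limma 3.58.1 in R 4.3.3 (lmFit, eBayes with an intensity trend), with 4 groups and labelled sex over all 21 arrays, and Benjamini-Hochberg adjustment over all genes at a threshold of 0.05. The difference between lines was a contrast in a fit with the nontransgenic mice split by line. The method was tested on simulated data with independent noise for each gene. The simulation held no deviant arrays and no 3′ bias, so it does not bear on them. Members past the threshold are described array by array and the others by role. The members and lists were chosen with earlier results of these data known. Nothing in the labels says whether mice shared litters, and the p-values measure the spread between these arrays.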

Additional observations from a re-analysis of the deposited data

Results flagged for a closer look

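Single arrays lay far from the rest of their group in 25 of 117 sets of member values, and all 25 came from 5 arrays. By chance the rule flags about 1 in 20 sets. The sets share the same 21 arrays and are not independent, so the count is no test of chance.

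WT bigenic 3 stood apart in 8 members. It was low in Hmgcs1 (13.607, the others 13.81 to 13.84), Mvd (7.117, the others 7.79 to 7.90), Fdft1 (10.842, the others 11.39 to 11.50) and Nsdhl (8.074). It was also low in Hsd17b7 (4.13), Dhcr7 (11.354) and Srebf2 (11.462), and high in Srebf1 (9.709).

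dNLS bigenic 5, the only female of its group and the array with its largest β-actin difference (2.30), also stood apart in 8 members. It was high in Nsdhl (9.304) and low in Hsd17b7 (4.995), Srebf2 (11.119) and Stard4 (6.899). It was low as well in Acly (12.656), Elovl5 (12.936), Scd1 (12.813) and Scd2 (12.958). The parts of sex and of the β-actin difference were not tested.

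Nontransgenic 6, the array with the largest β-actin 3′ minus 5′ difference, was low in Sc5d (8.131), Srebf2 (9.083), Scd2 (12.87) and Fads2 (10.561) and above the lowest value in Acaca (2.248). dNLS monogenic 2 was low in Fdps (8.343), Hsd17b7 (4.051) and Fads2 (11.513), and dNLS monogenic 1 in Lss (8.321). The β-actin difference of dNLS monogenic 2, at 3.13, was the largest of its group.

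The bigenic effect on Fdft1 differed between the lines by -0.883 on the log2 scale (dNLS bigenic effect minus WT bigenic effect), by an interaction term in limma (adjusted p = 0.033).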

How the results depend on the processing

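No called member reversed its sign under any of 32 alternatives. Against nontransgenic mice, Hmgcs1, Idi1, Fdft1, Sqle and Fasn were called in dNLS bigenic mice under all 32. With the β-actin 3′ minus 5′ difference as a covariate, calls over all genes moved as well. The count of members called was 11 for dNLS bigenic against nontransgenic (26.9% of all genes called), 0 for WT bigenic against nontransgenic (1.32%), 8 for dNLS bigenic against WT bigenic (19.7%, against 10.8% without the covariate) and 2 for the difference between lines (6.78%), where Elovl6 joined Fdft1. That covariate also gave 9 for dNLS bigenic against dNLS monogenic (23.3%). For WT bigenic against nontransgenic the count was 0 with arrays centred on the median, 0 against mice of the same line and 2 with the mean of a gene's probe sets, which added Idi1. Centring gave 3 for dNLS bigenic against WT bigenic, and leaving out nontransgenic 4 and 6 gave 3 for the difference between lines (6.84% of all genes).

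Leaving out 1 array at a time gave 5 to 8 members for dNLS bigenic against nontransgenic, 0 to 1 for WT bigenic against nontransgenic, 1 to 6 for dNLS bigenic against WT bigenic and 3 to 6 for dNLS bigenic against dNLS monogenic. The range was 0 to 0 for dNLS monogenic against nontransgenic and 0 to 2 for the difference between lines. The share of all genes called is not given beside these ranges or the counts with centring, same-line mice or probe-set means. They are therefore not read as particular to the members. The causes were not tested. No paired analysis was possible because the replicate numbers follow the order of deposit and pair no mice. Groups are small and differ in sex and line, values at the foot of the scale hide changes, and messenger RNA levels do not measure enzyme activity or lipids.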
